A study of Homo sapiens with 12 samples.

Results

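The epithelial sodium channel (ENaC) and the proteins that set its activity were followed through 12 RNA sequencing libraries of MCF10A cells, an established non-tumorigenic line of human mammary epithelial cells. The 6 genes were looked up by Entrez ID among the 23459 gene IDs of the count table: the channel subunits SCNN1A, SCNN1B and SCNN1G, the kinase gene SGK1, the ubiquitin ligase gene NEDD4L and the protease gene PRSS8. They were picked with their levels in these same 4 groups already known, so their levels and differences are given as a description, with no test. All 6 passed the filter on low counts.

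ENaC lets sodium enter epithelial cells across the apical membrane and is known from kidney collecting duct, distal colon, airway and gland ducts, where it limits how fast salt and water are taken up. The channel is built from α, β and γ subunits, encoded by SCNN1A, SCNN1B and SCNN1G. Membrane serine proteases such as prostasin, the product of PRSS8, raise its activity by cleavage. NEDD4L binds short motifs in the subunit tails and marks the channel for removal from the membrane, and the kinase SGK1, a classical target of corticosteroid receptors, phosphorylates NEDD4L and weakens that binding.

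The cells carried a doxycycline-inducible allele of YAP5SA, a form of the coactivator YAP that the Hippo kinases cannot inactivate, and were infected either with an empty vector or with a vector for overexpression of JUN, a subunit of the transcription factor AP-1. Each population received doxycycline (Dox) or its solvent ethanol (EtOH), which gave vector EtOH and JUN EtOH as the uninduced groups and vector Dox and JUN Dox as the induced ones, with 3 libraries each. The study crossed the treatments to ask how JUN bears on YAP-dependent transcription. All groups, the control included, carry the inducible allele and grew with serum, insulin, EGF, cholera toxin and hydrocortisone, a glucocorticoid, so the control is a steroid-exposed state. No Dox-treated cells without the YAP5SA allele were analysed here, and an effect of Dox itself cannot be told apart from that of YAP5SA.

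Total counts ranged from 18594867 to 28993487 per library, and each level is a CPM, the count divided by the TMM-scaled library size, with the SD over 3 libraries. JUN averaged 1278.8 ± 186.8 CPM in JUN EtOH and 1248.4 ± 92.3 in JUN Dox, against 47.6 ± 10.5 in vector EtOH and 189.7 ± 4.15 in vector Dox, in keeping with the labels. The 10 epithelial markers examined all averaged at least 1 CPM in every group, and their summed level was 9579.1 to 10045.6 CPM in vector EtOH and 8856.9 to 10401.9 in JUN EtOH, against 6062.3 to 7234.6 in vector Dox and 5891.3 to 8060.9 in JUN Dox. That sum was thus lower in Dox libraries, as the subunits were, and its part in the results was not tested. Of 5 leukocyte markers only CD14 averaged 1 CPM or more, and CD3E and LYZ had no count in any library. The leukocyte sum was 24.3 to 31.1 CPM in vector EtOH and 1.45 to 3.52 in JUN Dox, so CD14 moved with the subunits. The sum of 4 endothelial markers, largely PECAM1 in the control, was 1.97 to 2.2 CPM in vector EtOH, 0.572 to 0.969 in JUN EtOH, 0.131 to 0.413 in vector Dox and 0.1 to 0.821 in JUN Dox, and was likewise highest in the control. That of 7 fibroblast markers was 111.0 to 125.3 CPM in vector EtOH and 121.8 to 161.6 in vector Dox, 112.5 to 125.9 in JUN EtOH and 125.1 to 139.5 in JUN Dox. The part of these markers in the results was not tested. In bulk RNA, a smaller share of cells that use a gene and less of its RNA per cell cannot be told apart.

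The subunits were lower after YAP5SA induction and lower again, or as low, when JUN was added. SCNN1A (chr12:6456009-6486896, GRCh37, minus strand) was the most abundant of them, per exon length as well. Its level was 267.9, 261.9 and 289.4 CPM in vector EtOH and 113.6, 161.2 and 160.1 CPM in vector Dox. In JUN EtOH it was 160.9, 185.6 and 188.5 CPM, and in JUN Dox it was 71.0, 86.3 and 91.1 CPM. Both Dox groups lay below their EtOH controls without overlap, by 0.91 ± 0.14 (SE) on the log2 scale in vector cells and 1.11 ± 0.14 in JUN cells. JUN overexpression went with a log2 difference of -0.61 ± 0.14 without induction and -0.81 ± 0.14 with it, again without overlap. JUN EtOH and vector Dox, next to each other in the order of levels, did overlap. SCNN1A shares 422 exon bases with LTBR on the opposite strand, and the use of strand in counting is not given in the sources used here. LTBR averaged 163.3 ± 3.58 CPM in vector EtOH, the lowest mean, 176.9 ± 7.86 in vector Dox, 176.0 ± 5.61 in JUN Dox and 198.8 ± 7.91 in JUN EtOH. LTBR thus lay above control in all other groups, but within JUN cells its Dox libraries lay below its EtOH libraries without overlap, as those of SCNN1A did, with a log2 fold change of -0.18 ± 0.08 (edgeR adjusted p = 0.158).

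SCNN1G (chr16:23194066-23228204, GRCh37, plus strand), the γ subunit gene, differed most between EtOH and Dox. It had 64.1, 64.3 and 57.2 CPM in vector EtOH against 3.27, 4.42 and 1.98 CPM in vector Dox, a level 19.3-fold lower. In JUN EtOH the libraries held 23.9, 35.3 and 20.4 CPM, and in JUN Dox 2.16, 3.72 and 1.92 CPM, which was 10.3-fold lower. The 3 highest libraries were therefore those of vector EtOH, the 3 next those of JUN EtOH, and all 6 Dox libraries were at 4.42 CPM or less. Without induction, JUN cells lay below vector cells by 1.22 ± 0.23 on the log2 scale and did not overlap them. With induction the difference was -0.31 ± 0.31 and the groups overlapped. The interaction, meaning the log2 difference for induction in JUN cells less the one in vector cells, was 0.91 ± 0.39.

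SCNN1B (chr16:23289552-23392615, GRCh37, plus strand), the β subunit gene, lies 61.3 kb from SCNN1G and was the scarcest subunit in every library, also per exon length. The vector EtOH libraries had 10.4, 12.2 and 8.35 CPM and those of vector Dox 1.48, 1.08 and 0.95 CPM. JUN EtOH libraries had 0.44, 1.64 and 1.08 CPM, a spread that took in the whole range of vector Dox. JUN Dox libraries had 0.1, 0.259 and 0.355 CPM, which rest on 2, 6 and 10 reads, and 3 reads correspond to between 0.107 and 0.15 CPM in these libraries. Control cells thus stood apart from the other 3 groups, with log2 differences of -3.13 ± 0.32 for induction in vector cells and -3.27 ± 0.33 for JUN without induction. The further differences, -2.06 ± 0.49 for induction in JUN cells and -2.20 ± 0.48 for JUN with induction, are those of low counts and carry the widest errors of the 6 genes. This floor covers counting error alone. The reads had no molecular identifiers, so copies from amplification could not be removed, and the error they add is not covered.

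**Figure D1:**
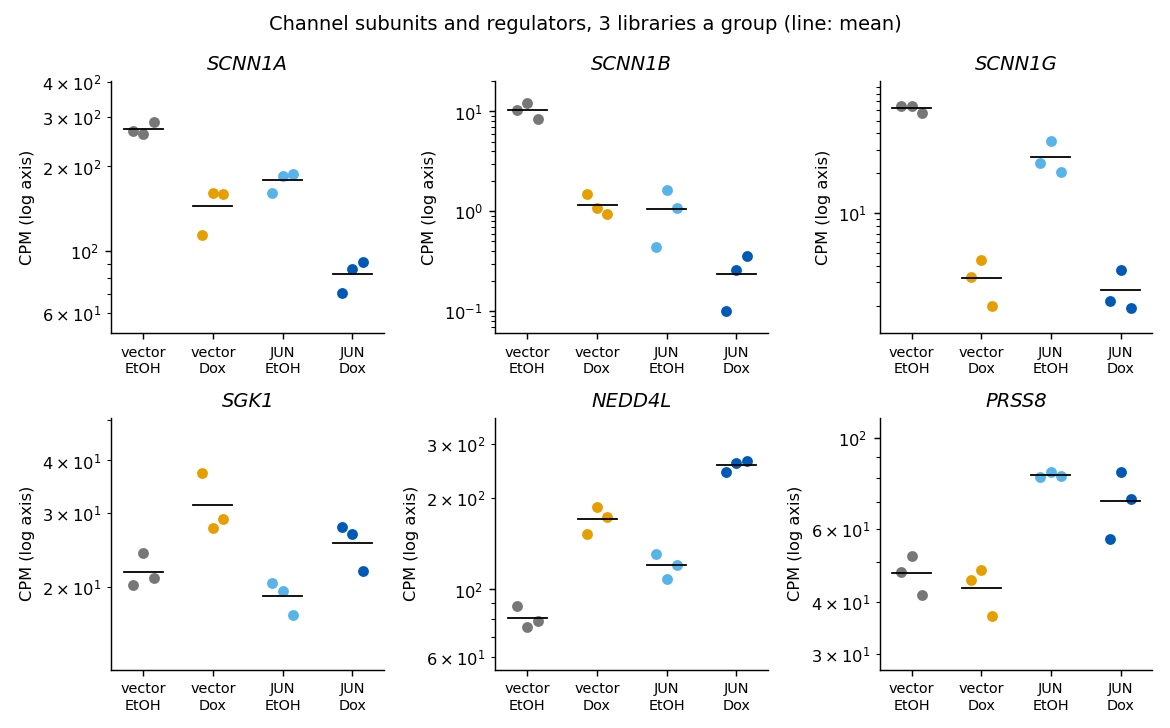
Level of each gene (CPM, log axis) in the 12 libraries. Points are libraries, 3 in each of the 4 groups, and lines are group means; SCNN1A, SCNN1B and SCNN1G are highest in vector EtOH and lowest in JUN Dox, and NEDD4L runs the other way, from 80.7 to 256.1 CPM.

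In all, 3 of 3 subunit genes were lower without overlap of groups in both inductions, where 14.4% of all 14775 genes tested were called lower in vector cells and 10.3% in JUN cells at an adjusted p under 0.05. The same 3 genes were lower without overlap in JUN cells without induction, beside 18.9% of all genes called lower, and 2 of 3 with induction, beside 17.2%. These shares are given as the background only, since the genes were picked on these contrasts. They count genes called at an adjusted p under 0.05, a different measure from groups without overlap, whose share over all genes was not computed. Between vector EtOH and JUN Dox the fitted level differed 3.3-fold for SCNN1A, 23.9-fold for SCNN1G and 40.2-fold for SCNN1B, the last with few reads in JUN Dox. For SCNN1A the log2 difference between these outer groups was -1.72, and the separate differences for induction in vector cells and for JUN without induction add up to -1.53. These separate differences share the vector EtOH libraries. For SCNN1G the same values were -4.58 and -5.49, and for SCNN1B -5.33 and -6.41.

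The makeup of the subunit RNA moved with its amount. To set the genes beside each other, CPM were divided by the kilobases covered by all annotated exons of each gene. On that scale SCNN1A made up 69.4 ± 2.8% of the summed subunit level in vector EtOH, SCNN1G 26.6 ± 2.06% and SCNN1B 3.97 ± 0.786%. In vector Dox, SCNN1A took 93.6% to 97.1% of the sum, and in JUN Dox 92.8% to 96.0%. JUN EtOH lay between, with 74.9% to 83.9% SCNN1A and 15.3% to 24.1% SCNN1G, and overlapped neither vector EtOH nor the Dox groups. The share of SCNN1B was 3.17% or more in every vector EtOH library and 1.85% or less in every other library. The summed level itself was 66.9 CPM per kb in vector EtOH, 38.3 in JUN EtOH, 25.9 in vector Dox and 14.9 in JUN Dox. With the longest transcript as the length, the share of SCNN1A was 78.2%, 86.5%, 96.7% and 96.6% in the same order of groups. The share of SCNN1G was then 17.8%, 12.8%, 2.21% and 3.04%, and the sum 100.3, 59.3, 43.0 and 24.7 CPM per kb, so the order of groups by the sum held while the SCNN1G share depended on the length chosen.

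**Figure D2:**
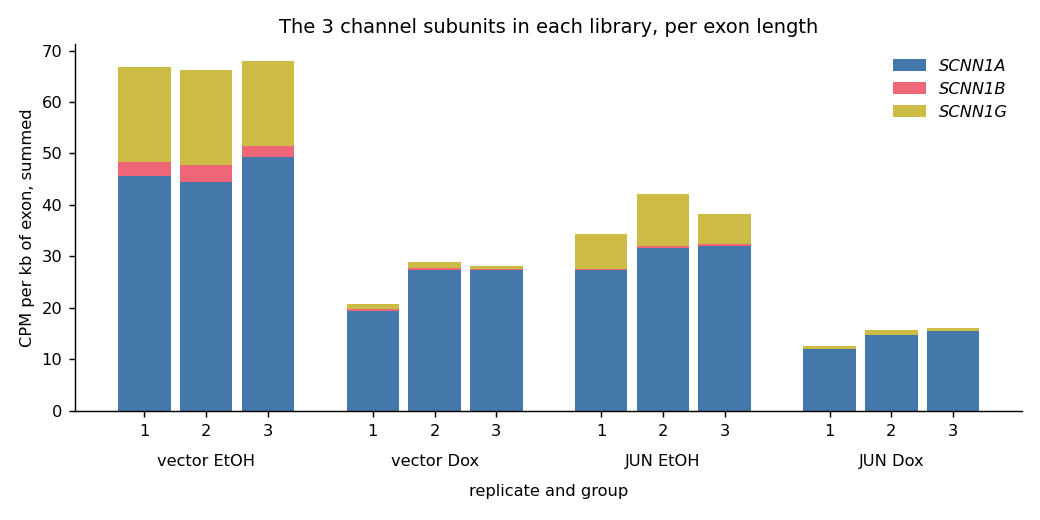
Subunit level per kb of exon (CPM per kb, stacked) in each library, with the replicate number and group on the horizontal axis and SCNN1A, SCNN1B and SCNN1G in separate colours. The SCNN1G layer is thick in the EtOH groups and thin in both Dox groups, while the SCNN1A layer makes up most of every bar.

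NEDD4L (chr18:55711458-56068772, GRCh37, plus strand) was the regulator with the clearest steps between groups, and its order was the reverse of that of SCNN1A. Its level was 88.3, 75.4 and 78.5 CPM in vector EtOH and 131.2, 108.6 and 120.3 CPM in JUN EtOH. It was 151.7, 186.3 and 173.6 CPM in vector Dox and 243.2, 259.9 and 265.1 CPM in JUN Dox. No neighbouring groups in that order overlapped. Induction went with a log2 difference of 1.08 ± 0.11 in vector cells and 1.09 ± 0.11 in JUN cells, and JUN with 0.57 ± 0.11 without and 0.59 ± 0.11 with induction. The inductions in the 2 backgrounds differed by only 0.02 ± 0.15, and the log2 difference of 1.66 between JUN Dox and vector EtOH was close to the 1.65 that the separate differences add up to. The ratio of NEDD4L to SCNN1A counts was 0.271 to 0.33 in vector EtOH, 0.585 to 0.816 in JUN EtOH, 1.08 to 1.33 in vector Dox and 2.91 to 3.42 in JUN Dox. As a ratio of unlike lengths it compares groups, not the amounts of the 2 RNAs.

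The RefSeq promoter table (GRCh38.p14) held 5 start sites of NEDD4L, 3 of SGK1 and 1 of SCNN1B, and no entry for SCNN1A, SCNN1G or PRSS8. The 250 bases before each start were searched on both strands for CATTCC, the core bound by the TEAD factors through which YAP reaches DNA. They were also searched for TGANTCA, a loose form of the AP-1 core that takes any base at its centre. Of 35116 promoters in the table, 11.9% held CATTCC and 6.57% held TGANTCA. Of the NEDD4L promoters, 4 of 5 held CATTCC, and number 4 from the 5′ end of the gene held TGANTCA as well. None of the SGK1 or SCNN1B promoters held either. The 2 NEDD4L promoters with the matches nearest a start and the SCNN1B promoter are shown, 5′ to 3′, with any match to either core in capitals. They are NEDD4L start 4 (chr18:58221321-58221570, plus strand), NEDD4L start 5 (chr18:58255266-58255515, plus strand) and the SCNN1B start (chr16:23302052-23302301, plus strand), all on GRCh38.
NEDD4L start 4: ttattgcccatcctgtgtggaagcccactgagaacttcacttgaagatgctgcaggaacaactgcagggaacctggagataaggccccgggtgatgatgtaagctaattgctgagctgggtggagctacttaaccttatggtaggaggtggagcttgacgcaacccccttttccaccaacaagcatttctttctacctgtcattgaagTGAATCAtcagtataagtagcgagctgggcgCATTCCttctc
NEDD4L start 5: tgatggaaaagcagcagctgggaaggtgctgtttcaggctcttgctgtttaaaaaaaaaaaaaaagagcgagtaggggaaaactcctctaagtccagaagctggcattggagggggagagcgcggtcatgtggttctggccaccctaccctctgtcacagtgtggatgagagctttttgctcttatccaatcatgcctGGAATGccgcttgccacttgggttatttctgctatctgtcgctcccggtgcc
SCNN1B: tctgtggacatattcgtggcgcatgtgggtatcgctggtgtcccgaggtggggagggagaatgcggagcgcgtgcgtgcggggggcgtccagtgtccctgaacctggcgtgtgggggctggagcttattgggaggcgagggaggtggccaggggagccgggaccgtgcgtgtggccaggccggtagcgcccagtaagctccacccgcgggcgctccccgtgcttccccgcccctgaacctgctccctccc
At NEDD4L start 4 the loose AP-1 match, with A at its centre, began 42 bases and the TEAD core 11 bases before the start. At start 5 the TEAD core, read on the other strand, began 52 bases before the start. A match describes these letters only. Counts per gene do not say which start was used, and binding was not measured in these files.

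SGK1 (chr6:134490386-134639250, GRCh37, minus strand) moved least with JUN. It had 20.2, 24.1 and 21.0 CPM in vector EtOH and 37.4, 27.7 and 29.1 CPM in vector Dox. In JUN EtOH it had 20.5, 19.6 and 17.2 CPM and in JUN Dox 27.8, 26.7 and 21.9 CPM. Each Dox group lay above its own control without overlap, by 0.53 ± 0.14 on the log2 scale in vector cells and 0.41 ± 0.14 in JUN cells. The differences for JUN were -0.18 ± 0.14 without and -0.30 ± 0.13 with induction, and the groups overlapped both times. Every pair of neighbours in the order of the 4 groups overlapped, so only the step from EtOH to Dox was larger than the spread between libraries. SGK1 thus lay higher in the groups where SCNN1G lay lowest.

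PRSS8 (chr16:31142754-31147048, GRCh37, minus strand) differed with JUN and not, beyond its spread, with Dox. It had 47.4, 51.8 and 41.5 CPM in vector EtOH, and 45.1, 47.7 and 37.1 CPM in vector Dox. In JUN EtOH it had 80.1, 82.4 and 80.8 CPM, and in JUN Dox 56.7, 82.6 and 71.2 CPM. All 6 JUN libraries were above all 6 vector libraries. The log2 difference was 0.79 ± 0.13 without and 0.70 ± 0.13 with induction. For induction the groups overlapped, with differences of -0.11 ± 0.14 (vector cells) and -0.21 ± 0.13 (JUN cells). Of the 3 regulators, NEDD4L and SGK1 were higher without overlap in both inductions, beside 15.6% of all genes called higher in vector cells and 11.2% in JUN cells. NEDD4L and PRSS8 were higher without overlap with JUN in both states, beside 20.1% called higher without and 18.4% with induction. These shares too count calls at an adjusted p under 0.05, not groups without overlap.

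**Figure D3:**
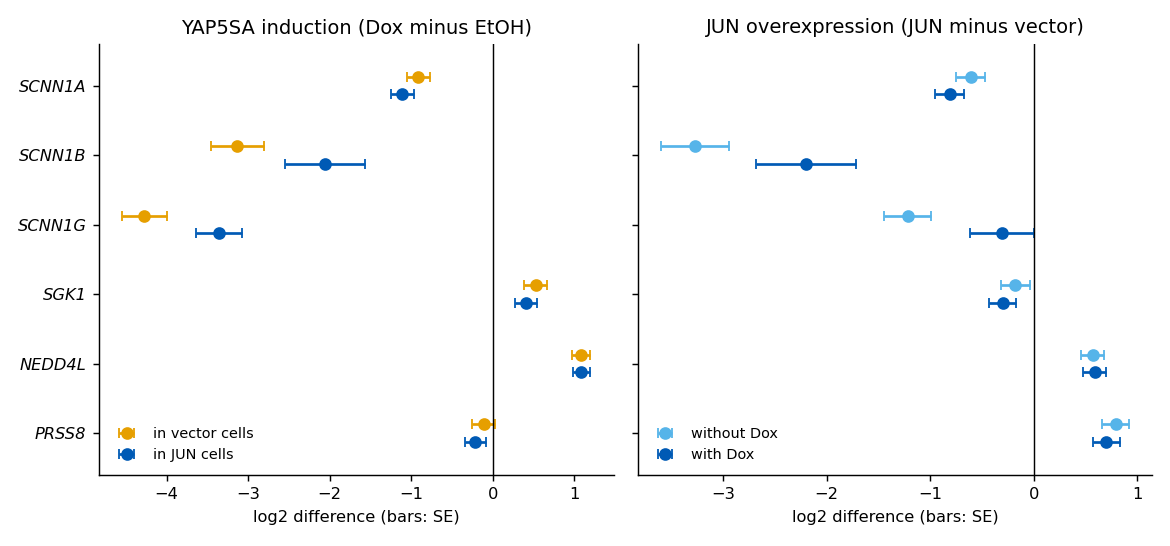
Log2 difference of each gene for YAP5SA induction (left, in vector and JUN cells) and for JUN overexpression (right, without and with Dox). Points are fitted differences and bars their SE; NEDD4L sits at 1.08 and 1.09 on the left, and SCNN1G moves from -1.22 without Dox to -0.31 with Dox on the right.

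Across the 12 libraries, NEDD4L levels ran against those of all 3 subunits, with a Pearson r of log2 CPM of -0.934 with SCNN1A, -0.925 with SCNN1G and -0.898 with SCNN1B. SCNN1A had an r of 0.901 with SCNN1B and 0.86 with SCNN1G, and the neighbouring genes SCNN1B and SCNN1G had an r of 0.781. These values describe 4 groups of 3 libraries and carry no p, since libraries of a group share their treatment. Among the 11404 tested genes that averaged 5 CPM or more, the gene most like SCNN1A was SFRP1 (r = 0.985), a secreted Wnt antagonist with 428.6 ± 13.9 CPM in vector EtOH and 107.3 ± 6.34 in JUN Dox. The next were BCAN (0.982) and CXXC5 (0.977). SCNN1B was most like UNC93B1 (0.976), H2AC25 (0.976) and TRIM47 (0.975). For SCNN1G the nearest was KCNN4 (0.989), which encodes the calcium-activated potassium channel KCa3.1, with GPRC5C (0.986) and NAB2 (0.984) next. The nearest to NEDD4L were DLC1 (0.994), EFCAB13 (0.987) and SMURF2 (0.982), a ubiquitin ligase gene of the NEDD4 family. SGK1 was most like RUFY2 (0.978), SNRNP40 (0.973) and HMGB2 (0.966), and PRSS8 most like COL6A1 (0.965), RGL1 (0.956) and ZFAND3 (0.955).

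The genes around the members did not all move with them. Within 250 kb of the SCNN1G and SCNN1B pair, edgeR called 0 of 7 protein-coding neighbours for induction in vector cells, beside 30.1% of all genes. Their log2 fold changes were -0.13 to 0.30, and DESeq2 called 0, though 2 were higher at an unadjusted p under 0.05. In JUN cells 1 of the 7 was called, beside 21.4% of all genes. It was EARS2, a mitochondrial glutamyl-tRNA synthetase gene, which was higher by 0.41 ± 0.10 (edgeR adjusted p = 0.00943). With JUN, where the subunits were also lower, EARS2 fell by 0.46 ± 0.10 without induction (edgeR adjusted p = 0.00289) and by 0.28 ± 0.10 with it (adjusted p = 0.0437). NDUFAB1, a mitochondrial acyl carrier protein gene, fell by 0.50 ± 0.17 (edgeR adjusted p = 0.0303) and by 0.55 ± 0.17 (adjusted p = 0.0208), and GGA2, a sorting adaptor gene, rose by 0.39 ± 0.12 without induction (adjusted p = 0.0193). In all, JUN without induction left 1 of the 7 higher and 2 lower, beside 20.1% and 18.9% of all genes. With induction it left 0 higher and 2 lower, beside 18.4% and 17.2%. At SCNN1A, 14 of 16 neighbours could be tested, and for induction in vector cells 4 were called lower and 1 higher, beside 14.4% and 15.6% of all genes. In JUN cells 5 were called lower and 1 higher, beside 10.3% and 11.2%. JUN left 4 of the 14 higher and 2 lower without induction, beside 20.1% and 18.9%. With induction it left 3 higher and 1 lower, beside 18.4% and 17.2%. Both neighbours of NEDD4L were called higher in both inductions, beside 15.6% and 11.2% of all genes. ATP8B1, a phospholipid flippase gene, rose by 2.04 ± 0.15 in vector cells (edgeR adjusted p = 8.63e-08) and by 2.52 ± 0.14 in JUN cells (adjusted p = 4.25e-08). ALPK2, an α-kinase gene, rose by 2.47 ± 0.36 in vector cells (edgeR adjusted p = 0.000115) and by 1.81 ± 0.31 in JUN cells (adjusted p = 0.000713). Of 2 tested neighbours of SGK1, 1 was called higher in both inductions, beside 15.6% and 11.2% of all genes. This was TBPL1, by 0.38 ± 0.13 in vector cells (edgeR adjusted p = 0.0338) and by 0.51 ± 0.13 in JUN cells (adjusted p = 0.00996). Of 15 tested neighbours of PRSS8, JUN left 3 higher and 3 lower without induction, beside 20.1% and 18.9%. With induction it left 4 higher and 1 lower, beside 18.4% and 17.2%. All these neighbours were named after their values were seen.

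The wider pathway was read from 7 lists with 133 other genes, of which 112 were tested with edgeR and called at an adjusted p under 0.05 over all genes. The lists were chosen with earlier results of these data known, so their shares and their order are given as a description. YAP5SA induction in vector cells left 10 of them higher and 27 lower, 33.0% in all beside 30.1% of all genes tested. In JUN cells 8 were higher and 32 lower, 35.7% beside 21.4%. JUN overexpression left 26 higher and 27 lower without induction, 47.3% beside 39.0%, and 29 higher and 21 lower with induction, 44.6% beside 35.6%. The interaction was called for 2 genes, 1.79% beside 1.12%, of which 1 was higher beside 0.291% and 1 lower beside 0.826%. The median log2 fold change of the 112 genes was -0.13 and -0.10 for the inductions, against 0.01 and 0.00 over all genes.

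The list of corticosteroid receptors, their enzymes and glucocorticoid-response genes held the largest share of genes that fell among the 7 lists in both inductions. That rank describes a list chosen with earlier results of these data known and is no test of it. Of its 17 tested genes, 11 fell and 0 rose in vector cells, with a median of -0.64, and 11 fell and 1 rose in JUN cells, with a median of -0.54, beside 14.4% and 10.3% of all genes called lower. DESeq2 called 1 gene higher in vector cells, and 1 was higher at an unadjusted p under 0.05 in edgeR. Without any 1 library the number that fell ranged from 9 to 13 in vector cells and from 9 to 11 in JUN cells. TSC22D3, which encodes the glucocorticoid-induced leucine zipper, had 18.9, 34.7 and 25.4 CPM in vector EtOH and 3.79, 3.15 and 2.02 CPM in vector Dox. In JUN EtOH it had 33.8, 51.8 and 29.8 CPM and in JUN Dox 5.92, 9.08 and 5.01 CPM. It fell by 3.14 ± 0.31 on the log2 scale in vector cells (edgeR adjusted p = 2.36e-06) and by 2.53 ± 0.28 in JUN cells (adjusted p = 1.62e-05), with no overlap of groups. ZBTB16, a steroid-induced zinc finger gene, fell from 25.7 ± 0.802 to 5.6 ± 1.37 CPM in vector cells (edgeR adjusted p = 8.26e-07) and from 25.2 ± 4.44 to 4.81 ± 1.33 CPM in JUN cells (adjusted p = 9.02e-07). FKBP5, a chaperone gene widely used as a readout of glucocorticoid exposure, fell from 771.3 ± 31.8 to 304.0 ± 59.1 CPM in vector cells (edgeR adjusted p = 2.22e-06) and from 638.7 ± 25.3 to 316.4 ± 17.1 CPM in JUN cells (adjusted p = 5.86e-05). These genes were low in the groups where SGK1, itself a target of the receptor, was high.

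KLF9, a steroid-induced transcription factor gene, fell by 1.77 ± 0.19 in vector cells (edgeR adjusted p = 5.6e-06) and by 1.82 ± 0.17 in JUN cells (adjusted p = 3.37e-06), and with JUN it rose by 1.23 ± 0.17 without induction (adjusted p = 5.85e-05) and by 1.18 ± 0.19 with it (adjusted p = 0.000258). ANGPTL4, a lipase inhibitor gene, fell from 376.0 ± 29.6 to 99.3 ± 19.7 CPM in vector cells (edgeR adjusted p = 2.84e-06) and from 482.6 ± 108.8 to 268.5 ± 57.4 CPM in JUN cells (adjusted p = 0.00433). With JUN it rose under induction by 1.44 ± 0.19 (edgeR adjusted p = 3.9e-05), while without induction the difference was 0.36 ± 0.18 with overlapping groups (adjusted p = 0.131). PER1, a clock gene that glucocorticoids induce, fell by 0.57 ± 0.15 in vector cells (edgeR adjusted p = 0.0088). In JUN cells its log2 fold change was -0.46 ± 0.15 (edgeR adjusted p = 0.0406), a call that was lost when any of 8 libraries was left out (adjusted p up to 0.133). With JUN, PER1 fell without induction from 148.1, 125.2 and 143.0 CPM to 84.5, 91.0 and 99.5 CPM (edgeR adjusted p = 0.0058). It also fell with JUN under induction (edgeR adjusted p = 0.0219), a call lost when any of 3 libraries was left out. Over the list, JUN left 4 of the 17 genes higher and 5 lower without induction, beside 20.1% and 18.9% of all genes. With induction it left 8 higher and 4 lower, beside 18.4% and 17.2%. NR3C1, the glucocorticoid receptor gene, was at 141.2 ± 14.6 CPM in vector EtOH and 128.3 ± 23.5 in vector Dox, a difference that was not called. NR3C2, the mineralocorticoid receptor gene, was scarce, at 2.42 ± 0.423 CPM in vector EtOH and 1.25 ± 0.299 in vector Dox, and its call in vector cells (edgeR adjusted p = 0.0149) was lost without vector Dox replicate 3 (0.0648) or vector EtOH replicate 1 (0.0529). The interaction was called for 0 of the 17 genes by edgeR, beside 1.12% of all genes, with 5 at an unadjusted p under 0.05, and for 2 by DESeq2.

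**Figure D4:**
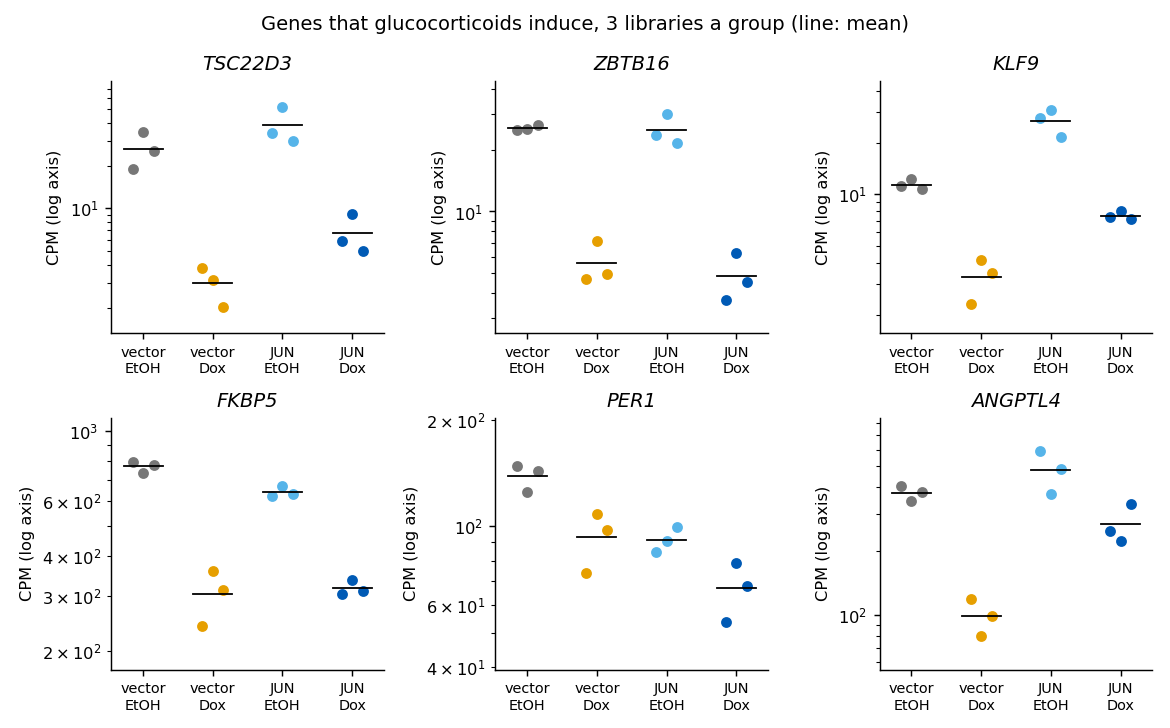
Level (CPM, log axis) of 6 genes that glucocorticoids induce, in the 12 libraries, with lines at group means. In all 6 genes the Dox libraries lie below the EtOH libraries of the same vector. KLF9 is higher in JUN cells in both states, and PER1 is lower in JUN EtOH than in vector EtOH.

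Among channel-activating proteases, furin-type convertases and their inhibitors, 7 of 13 tested genes fell and 0 rose with induction in vector cells, and 7 fell and 1 rose in JUN cells, beside 14.4% and 10.3% of all genes called lower. DESeq2 also called 0 of them higher in vector cells, and 0 were higher at an unadjusted p under 0.05. This list too was chosen with earlier results of these data known, so its shares are a description. The genes that fell in vector cells included proteases, such as FURIN and PLAT, and inhibitors, such as SPINT1, so the count mixes opposite roles. Several of these calls were near the threshold. The number that fell in vector cells was 4 without vector EtOH replicate 1 or 2 and 3 without vector Dox replicate 3, and in JUN cells it was 3 without JUN EtOH replicate 2 and 4 without JUN EtOH replicate 1 or 3 or JUN Dox replicate 1 or 3. FURIN, whose product cleaves the α and γ subunits on their way to the membrane, fell from 196.1 ± 9.34 to 128.9 ± 16.1 CPM in vector cells (edgeR adjusted p = 0.000555) and from 197.3 ± 6.2 to 133.7 ± 12.4 CPM in JUN cells (adjusted p = 0.00164). ST14, which encodes matriptase, a protease that acts in a cascade with prostasin, fell with JUN by 0.62 ± 0.10 without induction (edgeR adjusted p = 0.000187) and by 0.98 ± 0.10 with it (adjusted p = 2.76e-06), where PRSS8 was higher. SPINT2, an inhibitor of both proteases, fell with JUN under induction from 332.2 ± 90.1 to 208.3 ± 18.8 CPM (edgeR adjusted p = 0.00435). Its relative SPINT1 had log2 fold changes of -0.36 ± 0.11 and -0.34 ± 0.11 for the inductions, whose calls were lost when any of 4 and any of 8 libraries was left out (edgeR adjusted p up to 0.0752 and 0.146). SERPINE2, protease nexin-1, fell with JUN from 20.3 ± 4.6 to 3.83 ± 0.422 CPM without induction (edgeR adjusted p = 9.49e-08). PLAT, tissue plasminogen activator, rose with JUN from 22.0 ± 2.28 to 55.4 ± 5.12 CPM without induction (edgeR adjusted p = 5.77e-07) and from 16.5 ± 1.4 to 87.3 ± 7.49 CPM with it (adjusted p = 2e-09).

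In the list of NEDD4-type ligases with their adaptors and deubiquitinases, 4 of 21 genes rose and 1 fell in vector cells, and 3 rose and 2 fell in JUN cells. The called share was 23.8% in each, beside 30.1% and 21.4% of all genes, and so at or near the background. SMURF2 rose from 33.0 ± 3.45 to 98.1 ± 7.49 CPM in vector cells (edgeR adjusted p = 8.31e-08) and from 54.9 ± 1.35 to 222.7 ± 27.1 CPM in JUN cells (adjusted p = 2.93e-08). NEDD4, the closest relative, rose with JUN from 68.0 ± 7.72 to 145.1 ± 16.6 CPM without induction (edgeR adjusted p = 6.17e-05) and from 91.1 ± 13.1 to 170.2 ± 34.2 CPM with it (adjusted p = 0.000296). HECW1 fell with induction in JUN cells from 10.7 ± 0.75 to 5.49 ± 1.11 CPM (edgeR adjusted p = 0.00157) and rose with JUN by 1.37 ± 0.19 without induction (adjusted p = 5.85e-05) and by 1.13 ± 0.20 with it (adjusted p = 0.000556).

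Of 22 kinase, scaffold and phosphatase genes upstream of the channel, 3 rose and 1 fell in vector cells, and 1 rose and 1 fell in JUN cells, 18.2% beside 30.1% of all genes and 9.09% beside 21.4%. PRR5L, which encodes a partner of mTORC2, the complex that phosphorylates SGK1, rose from 4.76 ± 0.173 to 24.5 ± 2.61 CPM in vector cells (edgeR adjusted p = 1.03e-08) and from 4.6 ± 0.631 to 12.7 ± 1.16 CPM in JUN cells (adjusted p = 3.24e-06). Its relative PRR5 fell with JUN, by 1.11 ± 0.16 without induction (edgeR adjusted p = 8.41e-05) and by 1.20 ± 0.16 with it (adjusted p = 3.61e-05). SGK3, a kinase related to SGK1, was at 73.0 ± 6.71 CPM in vector EtOH and 48.2 ± 3.04 in JUN EtOH (edgeR adjusted p = 0.00621). WNK1, a kinase that acts above SGK1 in salt transport, was called in no comparison, with group means of 137.8 to 234.0 CPM.

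Of 22 tested genes for other ion transport, 6 fell and 2 rose with induction in vector cells, and 9 fell and 1 rose in JUN cells, 36.4% beside 30.1% of all genes, which is near the background, and 45.5% beside 21.4%. KCNN4 fell from 59.0 ± 6.38 to 11.4 ± 1.7 CPM in vector cells (edgeR adjusted p = 1.77e-08) and from 39.9 ± 4.9 to 10.5 ± 1.44 CPM in JUN cells (adjusted p = 3.72e-07), the same order of groups as SCNN1G. FXYD3, which encodes a small membrane protein of the FXYD family, fell with JUN from 10.6 ± 2.04 to 2.31 ± 0.748 CPM without induction (edgeR adjusted p = 9.58e-06) and from 6.31 ± 1.45 to 0.973 ± 0.236 CPM with it (adjusted p = 4.42e-06). SLC4A7, a sodium bicarbonate cotransporter gene, rose in vector cells from 36.4 ± 6.42 to 70.8 ± 12.4 CPM (edgeR adjusted p = 0.000902).

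The δ subunit gene SCNN1D had group means of 0.259 to 0.657 CPM and was not called in any comparison. Of the 4 tested genes of the ENaC and acid-sensing channel family, 1 was called in 1 comparison, ASIC1 with JUN without induction. ASIC1 was lower there, with a log2 fold change of -0.84 (edgeR adjusted p = 0.0159). Of all genes, 39.0% were called in that comparison and 18.9% were called lower. The inductions called 0 of the 4, beside 30.1% and 21.4% of all genes, and JUN with induction called 0, beside 35.6%. Of 13 tested partner and transcription regulator genes, 1 rose and 1 fell with induction in vector cells, and 1 rose and 2 fell in JUN cells. The called shares were 15.4% beside 30.1% of all genes and 23.1% beside 21.4%, and so below or near the background. CAV1, which encodes caveolin-1, rose from 600.2 ± 16.2 to 1141.9 ± 47.7 CPM in vector cells (edgeR adjusted p = 5.7e-06) and was lower with JUN in both states, by 0.37 ± 0.10 without (adjusted p = 0.00853) and 0.97 ± 0.10 with induction (adjusted p = 3.27e-06).

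**Figure D5:**
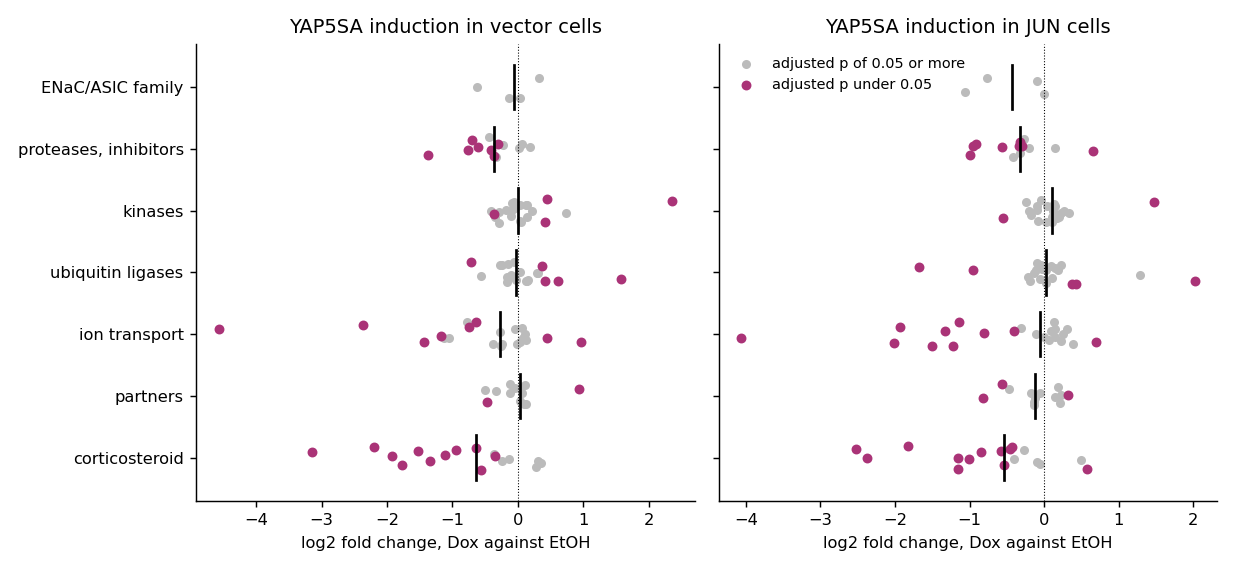
Log2 fold change of the 112 tested pathway genes for YAP5SA induction in vector cells (left) and in JUN cells (right), by list. Each point is a gene, coloured where its adjusted p was under 0.05, and black lines are list medians; the corticosteroid list has its medians at -0.64 and -0.54 and the kinase list near 0.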

How the data were processed

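Poly(A) RNA of 12 MCF10A cultures, 3 biological replicates per condition by the study's account, was sequenced as single-end reads. The authors trimmed reads with Cutadapt (4.2 in the submitters' processing notes), aligned them to hg19 with Bowtie2 (2.3.5.1 in those notes), which does not split reads across introns, and counted overlaps with genes using GenomicRanges. Reads over exon junctions are therefore largely lost, alike in all libraries. The gene annotation and the use of strand are not given in the sources used here. The deposited values are raw counts for 23459 Entrez IDs, 99.4% of which matched a symbol in a RefSeq gene table.

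Counts were fitted with edgeR 4.0.16 (R 4.3.3): filterByExpr by group (minimum count 10, minimum total 15), TMM factors, and 1 robust quasi-likelihood model over 12 libraries (biological coefficient of variation 12.5%). Benjamini-Hochberg adjustment ran over 14775 genes, with calls at an adjusted p under 0.05. Each SE was taken from the log2 fold change and its F statistic. The fit was tested on simulated counts. Gene positions came from GENCODE v44lift37 (GRCh37), and promoter sequences are RefSeq's on GRCh38.p14. DESeq2 1.42.0, RLE and upper-quartile factors, no filter, a replicate block, a minimum of 5 CPM, each comparison's own libraries alone, each library left out and a threshold of 0.01 were the alternatives.

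The 6 genes and the pathway lists were chosen with earlier results of these data known. Named besides these 6 were JUN and YAP1, as checks of the labels, and 15 close partners. For each comparison, list genes called and averaging 5 CPM or more were ranked by log2 fold change. The highest and lowest, up to 4 each, were named, as were the 3 genes most like each member. A further gene covered by that naming rule is left out of the text. Genomic neighbours and promoter motifs were added after the levels were seen.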

Additional observations from a re-analysis of the deposited data

Results flagged for a closer look

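For 2 pathway genes the response to YAP5SA induction differed between JUN and vector cells by the interaction test in edgeR. For PLAT the log2 fold change for induction in JUN cells less the one in vector cells was 1.07 ± 0.16 (adjusted p = 0.00238), with a fall of 0.41 on the log2 scale in vector cells and a rise of 0.66 in JUN cells. The fall in vector cells was lost without vector Dox replicate 3 (adjusted p = 0.0697) or vector EtOH replicate 2 (0.0614), while the interaction was called under every alternative run for it. For PRR5L the same value was -0.89 ± 0.19 (adjusted p = 0.0337), with a rise in both backgrounds that was larger in vector cells. That call was lost when any of 8 libraries was left out, with an adjusted p of up to 0.103, and under the replicate block (0.0513).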

How the results depend on the processing

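The log2 differences of the 6 genes kept their direction in the 4 pairwise comparisons under all alternatives run. Their interactions near 0 did not: with libraries left out in turn, that of NEDD4L ran from -0.06 to 0.09, that of PRSS8 from -0.23 to 0.05 and that of SGK1 from -0.20 to 0.03. In the comparisons, leaving out each library moved that of SCNN1G with JUN under induction between -0.66 and -0.01. Leaving out libraries, the pathway genes called numbered 27 to 40 for induction in vector cells, 26 to 40 in JUN cells, 43 to 62 for JUN without and 38 to 50 with induction, and 1 to 4 for the interaction. The count of 26 was that without JUN EtOH replicate 2, and the 4 interaction calls were those without vector Dox replicate 1. At an adjusted p under 0.01 the counts were 32 for JUN with induction, 26 for induction in JUN cells and 1 for the interaction, where fewer calls follow from the stricter threshold. DESeq2 called 5 interactions, and the cause was not tested. Of 80 calls of named pathway genes, 59 held without any 1 library. Depth limits SCNN1B most, with 2 to 10 reads per JUN Dox library.

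Replicate numbers are shared across groups, but not all libraries of the same number deviated together: correlations of their deviations ran from -0.258 to 0.466 over 18 pairs, and 7 exceeded 0.1, as did 5 of 36 pairs of different numbers. The numbers were therefore not taken to pair the libraries. With the replicate number as a block, 37, 53, 40 and 47 pathway genes were called for induction in vector cells, JUN without induction, induction in JUN cells and JUN with induction, and 2 for the interaction. The subunit differences for induction in vector cells were -0.93, -3.12 and -4.32 under the block for SCNN1A, SCNN1B and SCNN1G.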
